A study of Homo sapiens with 11 samples.

Results

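The libraries numbered 2 were 3 of the 9 RNA libraries of the series, which holds 11 libraries in all. They comprised 1 uninduced library, 1 taken after 5 days and 1 taken after 7 days of doxycycline. Number 2 was picked because its expression stood apart from numbers 1 and 3 in these same data. Every difference between number 2 and the other numbers is therefore a description. The limma calls used below to count and pick genes come from the contrast on which number 2 was chosen, so they sort genes and test nothing about number 2. Its 3 libraries share 1 replicate label and entered the fit as replicates, so the standard errors and calls do not measure the spread between separate cultures of its kind. The question that could be tested apart from that choice was whether the difference of number 2 depended on the day of induction.

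Z138 is an established human mantle cell lymphoma line, a B cell lymphoma driven by cyclin D1. All 9 RNA libraries came from clone 7, a single clone that carries Cas9-RFP and 2 guides against DNMT3A, a de novo DNA methyltransferase, under doxycycline control. The uninduced group (n = 3) received no drug, and the induced groups (n = 3 at day 5 and n = 3 at day 7) received doxycycline at 2 ng/mL. Replicates 1 to 3 were vials frozen separately and induced on separate days, and each RNA sample combined 2 technical duplicates, per the series design text. That text does not say whether an uninduced library shared its thaw or day with the induced libraries of the same number, so "number" below means only the replicate label. No clone without guides and no cells given doxycycline alone were analysed here, so the drug, Cas9 and the knockout cannot be told apart.

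As background, cultured B cell lines adjust several linked programmes to their nutrient and growth state. The integrated stress response raises translation of the factor ATF4 when amino acids are short or protein folding in the endoplasmic reticulum is strained. ATF4 drives amino acid synthesis, amino acid import and feedback genes. MYC drives growth genes, above all those that build ribosomes, while heat shock factors drive cytosolic chaperones and sterol-regulated factors drive cholesterol synthesis. In B cells, PAX5 and related factors hold the B cell state, while PRDM1, IRF4 and XBP1 drive secretory plasma cell genes.

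Expression was deposited as TPM, a length-corrected relative transcript abundance given as a share of each library, so sequencing depth is unknown. Between 21590 and 22895 genes per library were above 0 TPM, and the libraries numbered 2 had 22574, 21747 and 21590 in the uninduced, day 5 and day 7 groups. All 8 B cell and mantle cell lymphoma markers reached 1 TPM in at least 1 library. Their summed level was 2015 to 2114 TPM in number 2 and 1736 to 1984 TPM in the others, which did not overlap. The markers did not move together, with 2 of 8 called higher in number 2 and 1 lower. CCND1 and SOX11, both in the sum, differed by 0.02 and -0.54 on the log2 scale. The median log2 difference of the 8 was 0.64 against number 1 and 0.12 against number 3. At least 1 TPM was reached by 1 of 12 T and NK cell markers and 0 of 11 myeloid markers. It was reached by 2 of 11 epithelial and fibroblast markers, while all 9 erythroid markers were listed at 0 in every library. The summed T and NK marker level was 0.768 to 1.3 TPM in number 2 and 0.600 to 1.49 TPM in the others, and the summed myeloid marker level was 0.149 to 0.938 TPM against 0.160 to 0.710 TPM. The summed epithelial and fibroblast marker level was 772 to 996 TPM in number 2 and 625 to 899 TPM in the others. That sum rested almost wholly on the 2 markers that reached 1 TPM, and 6 of the 11 were at 0 in every library. The list includes VIM, and the sum is not a measure of such cells. The part of these marker levels in the differences below was not tested. The targeted gene, DNMT3A, stood at 10.1, 9.71 and 10.4 TPM in uninduced libraries 1 to 3, at 18.9, 10.9 and 10.0 TPM at day 5, and at 11, 9.24 and 10.0 TPM at day 7. A transcript level does not show whether the encoded protein was lost. The uninduced and day 7 libraries of number 2 were the lowest of the 9, and its day 5 library lay within the range of the others. The log2 difference in number 2 was -0.18 (SE 0.17).

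Number 2 differed from both other numbers across a broad set of genes, at modest size. Of 15045 genes tested, the limma fit with day as a term called 1388 higher in number 2 (9.23%) and 962 lower (6.39%), together 15.6%, at a Benjamini-Hochberg adjusted p under 0.05. These percentages are the background for each gene list below, and nothing is read from them, since number 2 was chosen on this contrast. The median log2 difference was 0.03 over all genes, the median absolute difference was 0.22, and the 90th percentile was 0.59. Only 70 of the genes called higher and 147 of those called lower differed by more than 1 on the log2 scale. Number 2 lay above both other numbers at all 3 times for 3045 genes (20.2%) and below both for 2169 genes (14.4%). All 3 libraries of number 2 lay above all 6 others for 2243 genes (14.9%) and below all 6 for 1463 genes (9.72%). In bulk RNA, fewer cells of a kind and less RNA per cell cannot be told apart, and this holds for every gene below.

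The calls rested on few libraries. Without the day 5 library of number 2 the fit called 24 genes, without its day 7 library 264, and without its uninduced library 699. Quantile normalization moved the share of calls that were higher from 59.1% to 47.9%, and scaling to a common median moved it to 50.8%, so the excess of higher calls depended on the scaling. The 100 most abundant genes held 33.5%, 33.3% and 33.8% of TPM in number 2 and 34.5% to 36.9% in the others, and snoRNA rows held 0.0537%, 0.0591% and 0.0576% against 0.0310% to 0.0451%. The part of these shares in the differences was not tested.

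The first principal component, 31.2% of the variance, placed number 2 at scores of 29.8, 31.2 and 31.8 in the uninduced, day 5 and day 7 libraries. Number 3 lay at -7.06, -6.06 and -11.0, and number 1 at -16.6, -36.8 and -15.1. The libraries of number 2 thus sat together on this axis regardless of induction, with number 3 between them and number 1. The second component, 12.9% of the variance, spread the libraries of number 2 by time, at 17.6, -4.24 and -22.9. It also set the other numbers apart. Number 1 lay at -13.6, -5.81 and -15.9 on it, and number 3 at 20.3, 13.7 and 10.7.

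**Figure D1:**
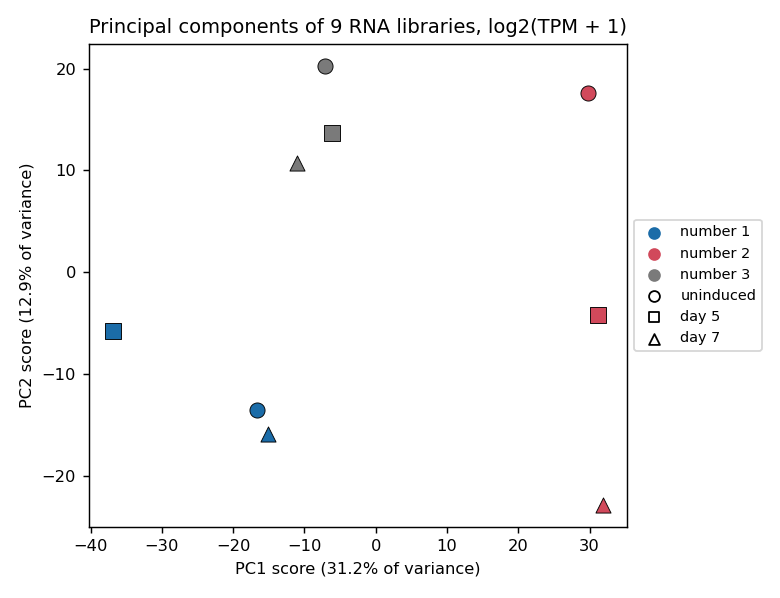
Scores of the 9 RNA libraries on the first and second principal components of log2(TPM + 1), with the share of variance on each axis, coloured by replicate number and shaped by time. The 3 libraries of number 2 sit between 29.8 and 31.8 on the first component, and all 6 others sit below 0.

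The difference was larger against number 1 than against number 3, slightly among genes called higher and more so among those called lower. Among the 1388 genes called higher, the median log2 difference was 0.50 against number 1 and 0.47 against number 3, and 57.7% differed more from number 1. Among the 962 called lower, the medians were -0.70 and -0.56, and 73.0% differed more from number 1. The same fit called 7 genes for number 1 against the rest (0.0465%, 5 higher and 2 lower) and 0 for number 3 (0%). In these limma fits 2260 and 835 genes had an unadjusted p under 0.05. These 3 contrasts share libraries. In the fits for numbers 1 and 3, number 2 is in the reference group, and its offset adds to the residual spread. Their counts of calls therefore cannot be set against those of number 2. The median absolute log2 difference was 0.17 for number 1 and 0.14 for number 3, beside 0.22 for number 2.

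The difference of number 2 was also computed at each time. Differences of number 2 at separate times share no library, and across the 15045 genes their Pearson correlation was 0.44 between uninduced and day 5, 0.32 between uninduced and day 7, and 0.41 between day 5 and day 7. These are correlations across genes, which are not independent replicates.

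**Figure D2:**
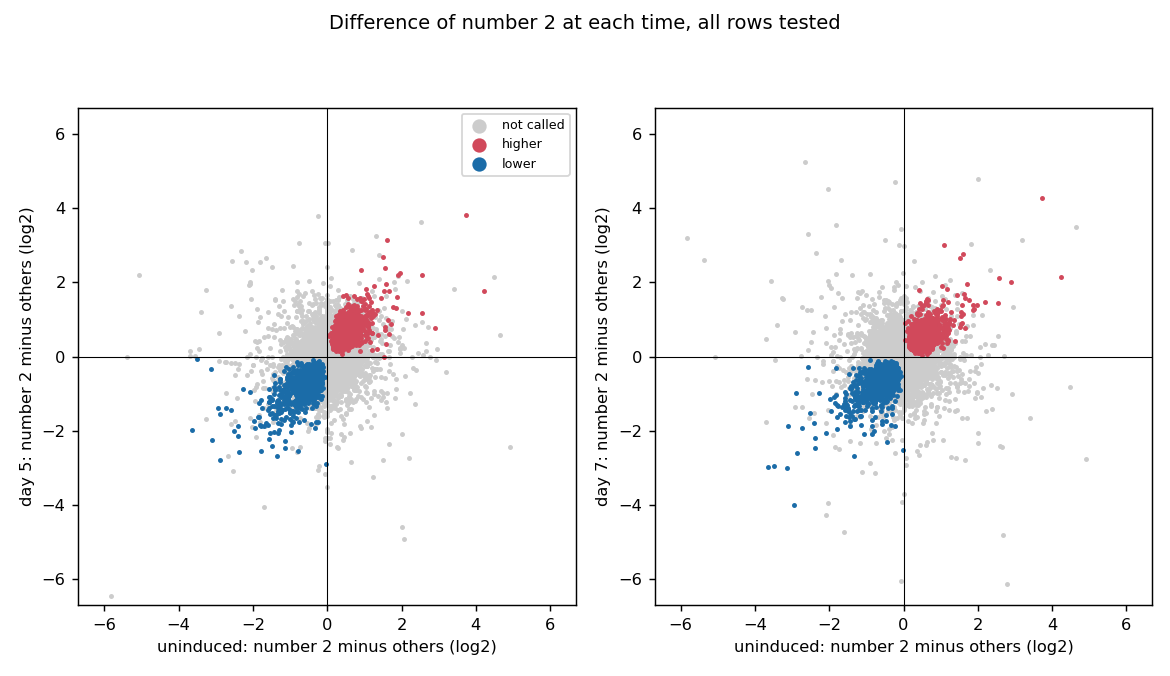
Each point is 1 gene, with the log2 difference of number 2 from the mean of numbers 1 and 3 in the uninduced libraries on the x axis and at day 5 (left) or day 7 (right) on the y axis. Genes called higher in number 2 (red, 1388) lie almost wholly in the upper right quadrant and genes called lower (blue, 962) in the lower left. That follows in part from how they were called, since the fit averages the 3 times.

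The dependence on day was the test that did not use the choice of number 2. The day by number interaction, a limma F test over all 15045 genes, called 1 gene (0.00665%), HNRNPA1P30, a pseudogene of an RNA-binding protein gene, at an adjusted p of 0.038. The test made 0 calls by limma with the replicate block of 3 levels and 0 at a minimum of 5 TPM, so this call depended on the setting. Its level was 7.53, 0 and 9.77 TPM in the uninduced, day 5 and day 7 libraries of number 2. In number 1 it was 7.21, 7.15 and 0 TPM, and in number 3 it was 8.74, 8.79 and 0 TPM. The gene was thus listed at 0 in number 2 at day 5 and in the others at day 7, and between 7.15 and 9.77 TPM elsewhere.

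The genes next in order of p did not pass. RPL17P50, a ribosomal protein pseudogene, SHPK, a sugar kinase gene, and TAP2, which encodes a peptide transporter of antigen presentation, each had an adjusted p of 0.071, and ACTA1, skeletal muscle actin, had 0.115. SHPK was listed at 0 TPM in the uninduced library of number 2 and lay between 8.58 and 11 TPM in the 8 other libraries. TAP2 was at 42.6, 38.8 and 5.92 TPM in number 2, against a lowest of 28.8, a median of 32.2 and a highest of 37.4 TPM in the others. SHPK was thus low in 1 library. TAP2 in number 2 lay above the range of the others in the uninduced and day 5 libraries and below it at day 7. At an unadjusted p under 0.05 the test held 536 genes (3.56%). Its median standard error was 0.35 on the log2 scale, against 0.14 for the difference of number 2 itself, so moderate changes with day were not detectable with 1 library of number 2 at each time.

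Targets of ATF4 were mostly lower in number 2. Of 42 listed genes 37 were measured, and 20 were called lower and 1 higher, with a median log2 difference of -0.59 beside 0.03 over all genes. The median was -0.52 in the uninduced libraries, -0.53 at day 5 and -0.62 at day 7. It was -0.84 against number 1 and -0.38 against number 3, so the size depended on which number was compared.

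Among the transcription factors, 3 of 5 were called lower. ATF4 itself was at 352, 456 and 493 TPM in the uninduced, day 5 and day 7 libraries of number 2, and at 485 to 730.1 TPM with a median of 605 in the others, a log2 difference of -0.48 (SE 0.13). Number 2 was the lowest at each time, though its day 7 library overlapped the lowest of the others. DDIT3, the pro-apoptotic factor CHOP, was at 35.3, 54.1 and 54.6 TPM against 114 to 249 with a median of 132, a log2 difference of -1.58 (SE 0.23). CEBPB was at 5.12, 6.47 and 8.70 TPM against 13.4 to 29.7 with a median of 18.6. For DDIT3 and CEBPB the groups did not overlap. The other members, ATF5 and CEBPG, were not called. ATF5 was at 1799.7, 1922 and 2219 TPM against a median of 2069, a difference of -0.10, and CEBPG differed by -0.30 (SE 0.11).

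Feedback and stress effectors held the lowest median of the 4 groups, -0.88, with 7 of 13 called lower. TRIB3, a pseudokinase that restrains ATF4 signalling, was at 41.5, 47.8 and 54.7 TPM in number 2 and between 116 and 233 TPM with a median of 157 in the others, a log2 difference of -1.71 (SE 0.18). CHAC1, which degrades glutathione, was at 2.41, 7.12 and 6.21 TPM against 14 to 33.1 with a median of 23.8, a difference of -2.01 (SE 0.34). SESN2, a stress-induced inhibitor of mTORC1, was at 7.43, 13.2 and 12.4 TPM against 21.2 to 41.7 with a median of 32.4. No library of number 2 reached the lowest of the others for these genes. PPP1R15A, a subunit that directs dephosphorylation of eIF2 alpha, differed by -0.95 (SE 0.17), and HERPUD1, of endoplasmic reticulum degradation, by -0.86 (SE 0.21). DDIT4, VEGFA and EIF4EBP1 were not called, at -0.58, -0.88 and -0.38, and their groups overlapped.

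Amino acid synthesis enzymes were called lower in 7 of 11 cases and higher in 1, with a median of -0.43. ASNS, which makes asparagine, was at 88.2, 102 and 108 TPM in number 2, below the 139 to 239 TPM of the others with a median of 183, a log2 difference of -0.90 (SE 0.16). The transsulfuration enzymes CBS and CTH differed by -1.81 (SE 0.34) and -0.85 (SE 0.16), at 0 to 2.97 TPM and 0.972 to 1.02 TPM in number 2. The 0 of CBS, in the uninduced library, can be a failed estimate and enters its difference. CBS was at 2.16 and 2.97 TPM at day 5 and day 7, against 4.73 to 9.85 TPM in the others. GPT2, an alanine transaminase, differed by -0.72 (SE 0.10), and PSAT1, of serine synthesis, by -0.69 (SE 0.17). ALDH18A1, the first enzyme of proline synthesis, went the other way, at 102, 104 and 97.0 TPM against 67.2 to 84.4, while PYCR1, the last step of that route, showed a difference of 0.01.

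Amino acid transporters were called lower in 3 of 8 cases, with a median of -0.41. SLC7A11, the cystine importer, was at 0.845, 1.66 and 1.47 TPM in number 2 against 3.21 to 8.11 with a median of 4.99, a difference of -1.40 (SE 0.27). SLC6A9, a glycine transporter, differed by -0.98 (SE 0.20), and SLC3A2, the heavy chain that pairs with several transporters, by -0.59 (SE 0.11). SLC38A2, a neutral amino acid transporter, was the single one with a positive difference, 0.18, and was not called.

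The promoters of 3 ATF4 targets that are lower in number 2 are shown because they hold the letters TGATGNAA, a core of the composite element that ATF4 shares with C/EBP factors. Windows run from 250 bases before to 50 after an annotated RefSeq start of the gene on GRCh38.p14. They are written on the gene's strand, with the motif in capitals, read on either strand. Match positions are counted from 0 at the first base from that start. A gene can have several starts, and for each gene shown the first window that holds the motif is printed. CHAC1 lies at chr15:40953221-40953520 (plus strand) with the match at -209 from the start, ASNS at chr7:97872359-97872658 (minus strand) with the match at -68, and SLC3A2 at chr11:62881449-62881748 (plus strand) with the match at 37.
CHAC1: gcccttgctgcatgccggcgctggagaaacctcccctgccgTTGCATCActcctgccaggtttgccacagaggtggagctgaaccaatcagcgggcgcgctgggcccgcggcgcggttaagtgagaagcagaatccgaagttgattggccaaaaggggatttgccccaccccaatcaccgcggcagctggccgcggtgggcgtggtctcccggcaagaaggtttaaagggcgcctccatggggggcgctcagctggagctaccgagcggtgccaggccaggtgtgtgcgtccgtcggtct
ASNS: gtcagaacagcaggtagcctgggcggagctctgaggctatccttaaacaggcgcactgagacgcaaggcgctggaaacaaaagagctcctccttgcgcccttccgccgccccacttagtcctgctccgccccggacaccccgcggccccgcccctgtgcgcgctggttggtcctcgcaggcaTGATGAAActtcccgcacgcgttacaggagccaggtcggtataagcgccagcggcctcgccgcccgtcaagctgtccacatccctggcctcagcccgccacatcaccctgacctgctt
SLC3A2: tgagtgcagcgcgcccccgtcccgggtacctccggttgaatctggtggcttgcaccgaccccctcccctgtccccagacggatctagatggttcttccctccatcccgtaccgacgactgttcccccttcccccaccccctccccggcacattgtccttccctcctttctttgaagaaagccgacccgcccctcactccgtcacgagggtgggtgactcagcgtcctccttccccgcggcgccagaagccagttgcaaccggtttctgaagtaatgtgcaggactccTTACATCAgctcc
Promoter windows were found for 30 of the 37 measured targets, and 10 of the 30 genes held the motif. By window this was 10 of 48 (20.8%), beside 1264 of 34796 windows of the same length over all genes (3.63%). A match describes these letters in this window and nothing about binding in these cells. The share covers all listed targets, called or not, so it describes the list and not number 2.

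Genes of the unfolded protein response, which expands the folding capacity of the endoplasmic reticulum, were lower in number 2 chiefly against number 1. All 36 were measured, with 10 called lower and 0 higher by limma and a median of -0.29. The median was -0.48 against number 1 and -0.09 against number 3. XBP1, its main transcription factor, was at 88.2, 113 and 103 TPM in number 2 against 121 to 198 with a median of 161, a difference of -0.63 (SE 0.18). ERN1, the sensor that splices XBP1 mRNA, was at 44.2, 55.0 and 65.3 TPM against 88.4 to 187 with a median of 122, a difference of -1.19 (SE 0.22). Neither group overlapped.

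By role, of 12 disulfide and degradation enzymes 5 were called lower. DERL3 differed by -1.39 (SE 0.22), SEL1L by -1.21 (SE 0.30) and EDEM1 by -0.94 (SE 0.14), all of the pathway that exports misfolded proteins for destruction. Of 11 chaperones 1 was called, DNAJB9, at -0.90 (SE 0.21). HSPA5, the main chaperone BiP, was at 192, 236 and 255 TPM against 205 to 310.0 with a median of 268 and was not called, and CALR was at 649, 669 and 744 TPM against 486 to 668, a difference of 0.25. The sensors ATF6 and EIF2AK3 were not called, at -0.06 and -0.25.

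Among cytosolic tRNA synthetases, which charge tRNAs with amino acids, 3 of 20 were called lower and 1 higher, and the median was -0.04, or 0.01 without number 1. WARS1 differed by -0.80 (SE 0.15), SARS1 by -0.59 (SE 0.13) and AARS1 by -0.54 (SE 0.10), each with all 3 libraries of number 2 below the 6 others. FARSA differed by 0.40 (SE 0.09).

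Genes of ribosome building were higher in number 2. All 77 genes of the MYC and ribosome biogenesis list were measured, with 48 called higher and 1 lower and a median log2 difference of 0.46. It was 0.48 against number 1 and 0.47 against number 3, and 0.37, 0.63 and 0.42 in the uninduced, day 5 and day 7 libraries, so it was similar against each other number. MYC itself was at 758, 763 and 812 TPM in number 2 and at 615 to 716 TPM with a median of 678 in the others. All 3 libraries of number 2 were above the 6 others for MYC, by 0.20 (SE 0.06), which was not called.

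In the group named nucleolar rRNA processing, 30 of 38 genes were called higher, with a median of 0.56. The group also holds PUS1, PUS7 and TBRG4, which have other roles. NCL, nucleolin, was at 977, 998 and 1099 TPM against 519.8 to 711 with a median of 633, a difference of 0.71 (SE 0.09). UTP20, of the small subunit processome, was at 14, 14.4 and 14.6 TPM against 4.19 to 8.01 with a median of 7.03, a difference of 1.03 (SE 0.16). PA2G4 was at 501, 526 and 600.2 TPM against 288 to 374 with a median of 345. None of these overlapped. NPM1, nucleophosmin, was not called, at 1395, 1540.3 and 1613 TPM against 1242 to 1519, and NOB1 differed by -0.04.

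RNA polymerase I and III genes were called higher in 5 of 11 cases, with a median of 0.44. UBTF, which activates rRNA genes, was at 121, 124 and 113 TPM against 60.3 to 84.8 with a median of 69.4, a difference of 0.75 (SE 0.09). POLR1D, POLR1E and POLR3D were not called, with differences of -0.11, -0.14 and -0.18. POLR2H, a subunit common to the 3 nuclear RNA polymerases, was among the 12 clearest genes, at 127, 122 and 113 TPM against 68.4 to 82.5 with a median of 75.8, a difference of 0.65 (SE 0.08).

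Metabolic and translation targets of MYC were called higher in 13 of 21 cases, and all 21 differences were positive, with a median of 0.42. ODC1 and SRM, of polyamine synthesis, differed by 0.68 (SE 0.15) and 0.46 (SE 0.12). HSPE1, a mitochondrial chaperonin, was at 734, 751 and 818 TPM against 259 to 521 with a median of 462, a difference of 0.84 (SE 0.19). Of the 7 transcription factors of the list 0 were called higher, with a median of -0.07, and MYC had the highest difference, 0.20. MAX, the partner of MYC, differed by 0.02, MNT by -0.07 and MYB by -0.16, and MXD1, which opposes MYC, was called lower at -0.58 (SE 0.16).

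Shown next are the promoters of 3 genes of the list that are higher in number 2 and hold CACGTG, the E-box that MYC with MAX can bind, in capitals. LDHA lies at chr11:18394313-18394612 (plus strand) with matches at -185 and -87 from the start, PES1 at chr22:30591861-30592160 (minus strand) with a match at 13, and NAT10 at chr11:34105379-34105678 (plus strand) with a match at -15. PES1, of large subunit assembly, was at 164, 169 and 186 TPM in number 2 against 98.9 to 129, and NAT10, an RNA acetyltransferase, was at 117, 111 and 118 TPM against 56.6 to 78.7.
LDHA: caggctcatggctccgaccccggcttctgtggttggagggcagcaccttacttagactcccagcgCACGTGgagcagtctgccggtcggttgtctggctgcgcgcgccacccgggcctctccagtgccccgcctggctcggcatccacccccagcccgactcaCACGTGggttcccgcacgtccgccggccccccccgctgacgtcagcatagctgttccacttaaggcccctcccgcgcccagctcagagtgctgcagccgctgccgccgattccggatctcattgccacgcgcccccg
PES1: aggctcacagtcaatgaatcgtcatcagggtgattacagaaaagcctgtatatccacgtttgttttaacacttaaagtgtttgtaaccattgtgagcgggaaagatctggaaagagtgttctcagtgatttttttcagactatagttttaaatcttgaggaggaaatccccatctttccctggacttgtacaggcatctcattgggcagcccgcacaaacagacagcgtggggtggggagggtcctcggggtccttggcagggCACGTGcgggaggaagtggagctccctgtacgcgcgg
NAT10: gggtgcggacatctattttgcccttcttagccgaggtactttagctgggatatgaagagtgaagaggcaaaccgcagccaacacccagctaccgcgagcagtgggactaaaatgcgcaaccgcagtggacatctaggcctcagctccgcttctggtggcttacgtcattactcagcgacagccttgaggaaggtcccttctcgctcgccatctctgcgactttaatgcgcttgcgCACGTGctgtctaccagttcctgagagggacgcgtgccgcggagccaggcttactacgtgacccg
Windows were found for 62 of the 77 genes, and 25 of the 62 genes held the E-box. By window this was 25 of 85 (29.4%), beside 2507 of 34796 windows over all genes (7.20%). This share too covers the whole list, called or not, and says nothing of number 2 or of binding.

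Cytosolic chaperones had the highest median of the lists in the plot of list medians. Of 19 measured genes 14 were called higher and 0 lower by limma, with a median of 0.59, and 0.62 and 0.56 against numbers 1 and 3. HSPA8, the constitutive chaperone HSC70, was at 1264, 1418 and 1566 TPM in number 2 and at 506 to 877 TPM with a median of 786 in the others, a difference of 0.93 (SE 0.16). HSPH1, its nucleotide exchange factor, was at 139, 164 and 163 TPM against 40.8 to 76.5 with a median of 69.5, a difference of 1.26 (SE 0.19). HSP90AA1 was at 893, 992 and 1046 TPM against 427 to 680.4 with a median of 629. These groups did not overlap.

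The stress-inducible pair HSPA1A and HSPA1B differed by 0.95 (SE 0.14) and 0.99 (SE 0.14), though these near-identical genes share reads and their separate values are uncertain. DNAJA1, a cochaperone of HSPA8, differed by 0.88 (SE 0.15), and AHSA1, which stimulates the HSP90 ATPase, by 0.72 (SE 0.10). The heat shock factors HSF1 and HSF2 showed differences of -0.08 and 0.08 and were not called, nor was BAG3 at 0.07. The letters GAANNTTC, a pair of facing heat shock units, were found in 10 of 28 windows of the list (35.7%), beside 2361 of 34796 (6.79%).

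**Figure D3:**
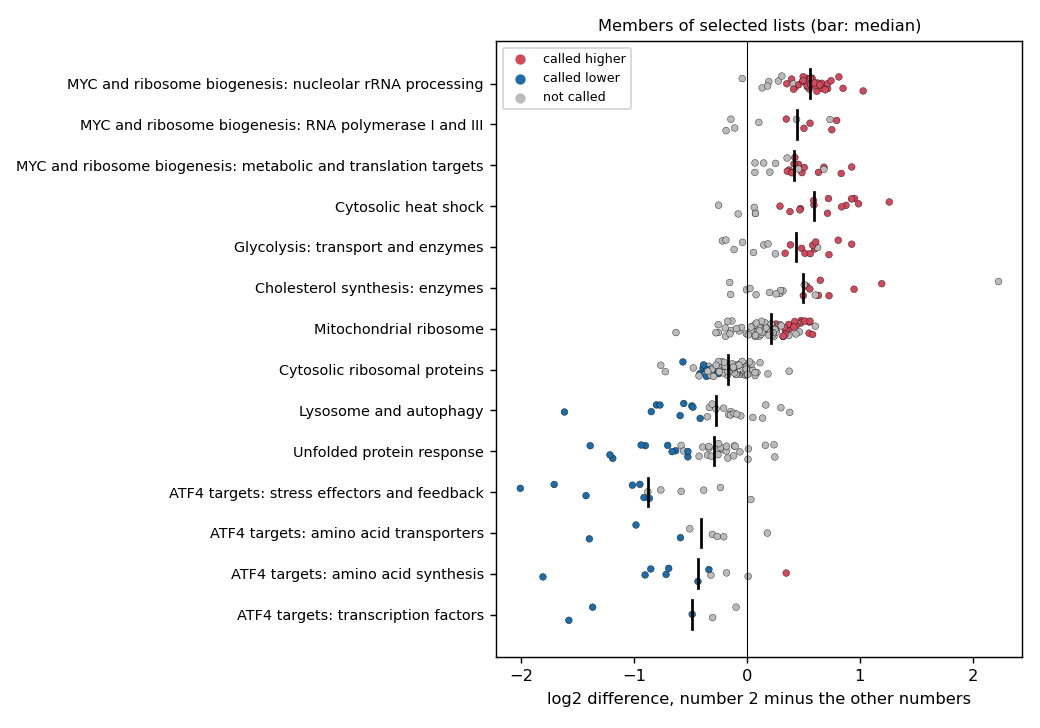
Log2 difference of number 2 from the other numbers (x axis) for each measured member of 14 selected lists or roles (rows), red where called higher, blue where called lower and grey otherwise, with a bar at the median. ATF4 target groups have medians from -0.88 to -0.41, and nucleolar rRNA processing and cytosolic heat shock have medians of 0.56 and 0.59.

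Glycolytic enzymes were higher in number 2, most in the uninduced library. Of 24 measured genes 11 were called higher and 0 lower by limma, with a median of 0.33. The median was 0.55 in the uninduced libraries, 0.35 at day 5 and 0.08 at day 7, and no glycolysis gene passed the interaction test. Without the uninduced library of number 2 the median was 0.19. LDHA, which makes lactate, was at 896, 749 and 699 TPM in number 2 and at 374 to 443 TPM with a median of 409.9 in the others, a difference of 0.93 (SE 0.08). PKM, pyruvate kinase, was at 1090.4, 945 and 771 TPM against 437 to 589 with a median of 549, a difference of 0.81 (SE 0.11). ENO1, enolase, was at 1709, 1438 and 1254 TPM against 802 to 1071 with a median of 960.2. In all 3 genes number 2 lay above every other library at every time.

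SLC2A1, the glucose transporter GLUT1, differed by 0.60 (SE 0.17) and its groups overlapped. HK1, PFKL and SLC2A3 had differences of -0.22, -0.19 and -0.11 and were not called. ALDOC was at 29.3, 7.73 and 3.65 TPM against 4.96 to 7.57, so its uninduced and day 5 libraries lay above all others and its day 7 library below them, and LDHB was at 1547, 1566 and 722 TPM against 709.9 to 1531. The 5 measured LDHA pseudogenes, examined after LDHA had been seen, were all called higher, but their reads cannot be cleanly told from those of LDHA. HIF1A, the oxygen-regulated factor that also drives glycolysis, was at 30.4, 29.0 and 28.6 TPM against 25.3 to 27.9, a difference of 0.11 that was not called, and 2 of 21 hypoxia genes were called higher and 1 lower.

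Enzymes of cholesterol synthesis were higher in number 2, with 8 of 21 called higher, 0 lower by limma and a median of 0.50. The median was 0.42 in the uninduced libraries, 0.54 at day 5 and 0.13 at day 7. IDI1, which isomerises isoprenoid units, was at 90.1, 98.5 and 77.7 TPM against 49.1 to 58.8 with a median of 51.7, a difference of 0.73 (SE 0.09). SQLE, squalene epoxidase, was at 33.2, 30.6 and 32.3 TPM against 11.2 to 18.7 with a median of 17.0, a difference of 0.95 (SE 0.13). For both genes number 2 lay wholly above the others.

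CYP51A1 had the largest difference of these enzymes, 2.23, but was not called, since the others ranged from 1.66 to 19.6 TPM beside 25.4, 30.2 and 25 TPM in number 2. The regulator SREBF2 was at 88.6, 70.5 and 60.7 TPM against 68.9 to 83.3 and differed by -0.04. FDPS and LSS differed by 0.08 and 0.03. Of 11 fatty acid synthesis genes 4 were called higher, among them SCD at 0.70 (SE 0.10), ACACA at 0.64 (SE 0.09) and FASN at 0.60 (SE 0.10), and 1 was called lower, the acetate-activating enzyme ACSS2 at -0.68 (SE 0.15).

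**Figure D4:**
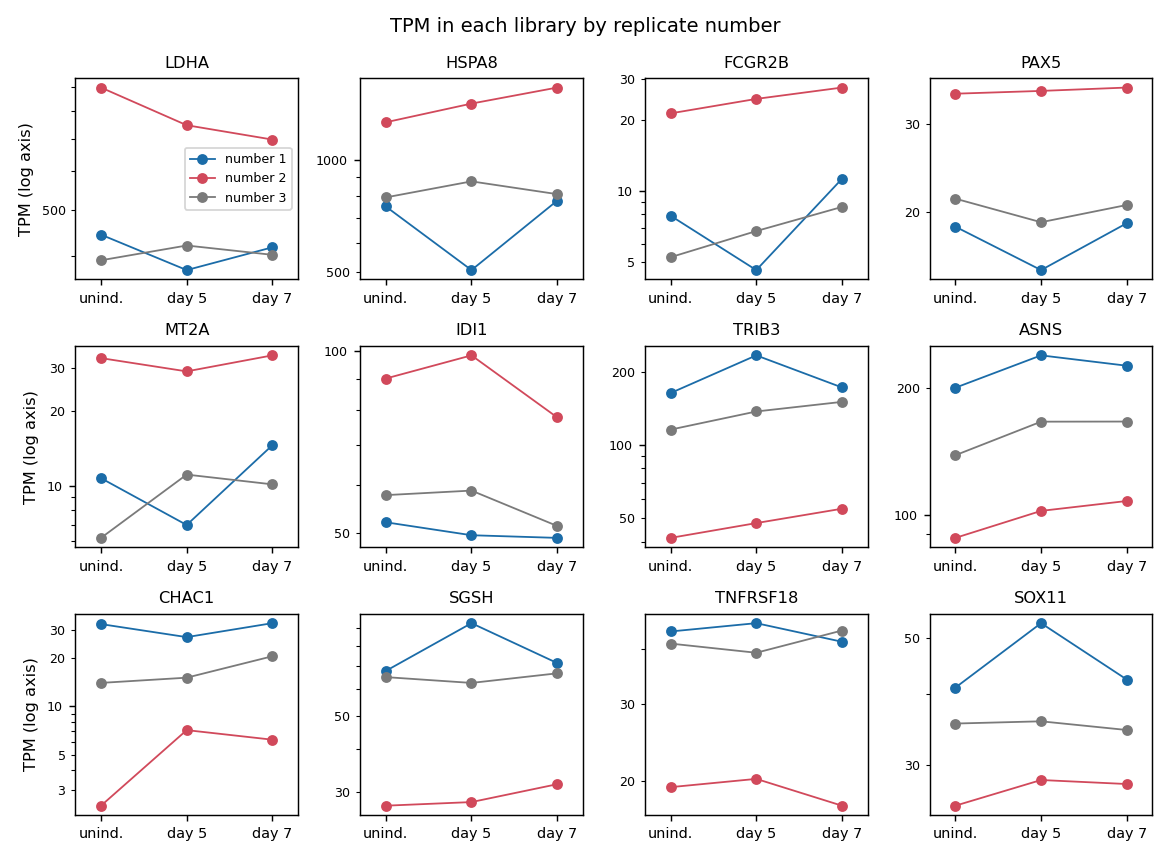
TPM on a log axis (y) in the uninduced, day 5 and day 7 libraries (x) of replicate numbers 1 (blue), 2 (red) and 3 (grey) for 12 genes, 1 library per point. In LDHA, HSPA8, FCGR2B, PAX5, MT2A and IDI1 the line of number 2 lies above all other points, and in TRIB3, ASNS, CHAC1, SGSH, TNFRSF18 and SOX11 it lies below all of them.

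By their medians, B cell factors and plasma cell genes lay on opposite sides. Of 18 measured B cell factors and surface genes 4 were called higher and 3 lower, with a median of 0.36. Of 9 plasma cell genes 1 was called higher and 5 lower, with a median of -0.46. Against numbers 1 and 3 apart, the B cell medians were smaller, at 0.24 and 0.22. For plasma cell genes they were -0.58 and -0.34. PAX5, the factor that maintains B cell identity, was at 34.5, 34.9 and 35.5 TPM in number 2 and at 15.3 to 21.3 TPM with a median of 19.0 in the others, a difference of 0.85 (SE 0.10). SPIB, an ETS factor, was at 55.2, 60.6 and 58.3 TPM against 12.8 to 27.6 with a median of 26.3, a difference of 1.3 (SE 0.19). Both held nearly the same level in the 3 libraries of number 2.

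On the plasma cell side, SDC1, the surface marker CD138, was at 16.3, 24.8 and 23.3 TPM against 32.8 to 52.4 with a median of 41.4, a difference of -0.94 (SE 0.17). MZB1, an endoplasmic reticulum cofactor of immunoglobulin secretion, was at 291, 248 and 283 TPM against 432 to 594 with a median of 470.4, a difference of -0.85 (SE 0.11). PRDM1, the factor BLIMP1, was at 5.94, 7.51 and 9.61 TPM against 9.07 to 24.1 with a median of 14.2 and overlapped by its day 7 library. IRF4 differed by -0.46 (SE 0.10). TNFRSF17, the receptor BCMA, was the member called higher, by 0.24 (SE 0.07).

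Not every B cell gene was higher. MEF2B, a germinal centre factor, was at 75.8, 92.4 and 108 TPM in number 2 against 164 to 361 with a median of 261, a difference of -1.44 (SE 0.25). CD37, a B cell tetraspanin, was at 12.8, 11.3 and 11.7 TPM against 21.2 to 36.0 with a median of 25.4, a difference of -1.10 (SE 0.17). SOX11, a defining factor of mantle cell lymphoma, was at 25.4, 28.2 and 27.8 TPM against 34.5 to 53.2 with a median of 38.4, a difference of -0.54 (SE 0.13). All 3 were below the whole range of the other libraries. CCND1, cyclin D1, was at 1095, 1059.7 and 1093 TPM against 963 to 1162, a difference of 0.02.

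B cell receptor signalling, the pathway that ibrutinib blocks at BTK, had 7 of 23 measured genes called higher and 1 lower, with a median of 0.23. FCGR2B, the inhibitory Fc receptor, was at 21.4, 24.6 and 27.5 TPM in number 2 and at 4.63 to 11.3 TPM with a median of 7.32 in the others, a difference of 1.64 (SE 0.18). PIK3AP1, an adaptor for PI3K in B cells, was at 115, 116 and 119 TPM against 60.3 to 71.4 with a median of 63.4, a difference of 0.84 (SE 0.08). The groups did not overlap for either gene. PIK3CD, the B cell PI3K subunit, differed by 0.53 (SE 0.11), CD79B by 0.43 (SE 0.07) and SYK by 0.40 (SE 0.11), while CD72, an inhibitory coreceptor, differed by -0.51 (SE 0.12).

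Among NF-kB genes 4 of 25 were called higher and 1 lower, the latter being IRF4. TNFRSF13B, the receptor TACI, differed by 0.87 (SE 0.11), BIRC3 by 0.75 (SE 0.18) and NFKBIA, the inhibitor that NF-kB induces, by 0.56 (SE 0.10). Among antigen presentation genes 6 of 27 were called higher and 1 lower. CD74, the class II invariant chain, was at 6924, 5649.8 and 5602 TPM against 4178 to 4854 with a median of 4674. The interferon list had 5 of 31 called higher and 1 lower, with a median of 0.04 that was -0.01 without the day 7 library of number 3 and -0.08 without all of number 3, and MX2, an antiviral GTPase, differed by 0.86 (SE 0.19).

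Proliferation genes were slightly higher. Of 51 genes of G1/S and DNA replication 14 were called higher and 2 lower, with a median of 0.24, and of 42 G2/M genes 9 were called higher and 0 lower by limma, also with a median of 0.24. The G2/M median was 0.33 against number 1 and 0.13 against number 3. By time it was 0.09 in the uninduced libraries, 0.14 at day 5 and 0.33 at day 7, and without the day 7 library of number 2 it was 0.12. MKI67, the proliferation marker, was at 107, 109 and 129.6 TPM in number 2 against 72.8 to 85.0 with a median of 80.7, a difference of 0.52 (SE 0.09). CCNE2, cyclin E2, was at 11.7, 9.43 and 10.9 TPM against 3.70 to 6.96 with a median of 5.52, a difference of 0.87 (SE 0.18). RB1, which restrains S phase entry, was at 73.2, 71.9 and 75.8 TPM against 40.2 to 50.3, a difference of 0.69 (SE 0.09). None of the 3 overlapped. E2F1 was not called, at 0.11. Of 16 measured histone genes 0 were called higher and 1 was called lower, the linker histone gene H1-10 at -0.37.

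Genes linked to FOXO factors and quiescence had 5 of 20 called lower and 0 higher, with a median of -0.41. The median was -0.17 in the uninduced libraries, -0.71 at day 5 and -0.20 at day 7, and it was -0.19 without the day 5 library of number 2. YPEL5 and PDCD4 differed by -1.11 (SE 0.12) and -0.67 (SE 0.16). In the BCL2 family 3 of 14 were called lower and 1 higher. BCL2 itself was at 60.8, 60.3 and 62.4 TPM against 69.6 to 108 with a median of 78.0, a difference of -0.41 (SE 0.12).

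Lysosome and autophagy genes had 9 of 25 called lower and 0 higher, with a median of -0.27, or -0.42 against number 1 and -0.15 against number 3. WIPI1, of autophagosome formation, was at 0.908, 2.36 and 2.72 TPM in number 2 against 4.64 to 16.4 with a median of 7.58, a difference of -1.62 (SE 0.32). GAA, which degrades glycogen, was at 57.7, 47.0 and 34.8 TPM against 68.7 to 90.2 with a median of 80.7, a difference of -0.80 (SE 0.14). FLCN, a regulator of lysosomal nutrient signalling, differed by -0.85 (SE 0.18), and SQSTM1, the autophagy receptor p62, by -0.48 (SE 0.13). SGSH, which degrades heparan sulfate and was among the 12 clearest lower genes, was at 27.4, 28.0 and 31.6 TPM against 62.3 to 93.1 with a median of 67.0, a difference of -1.25 (SE 0.13).

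Oxidative phosphorylation, named in the series title, differed little. Of 37 complex I subunits 3 were called higher and 1 lower, with a median of 0.13, or 0.03 without the day 5 library of number 2, and of 40 genes of complexes II to V 7 were called higher and 1 lower, with a median of 0.11. NDUFA6, an accessory subunit of complex I, was at 100.3, 115 and 109.7 TPM in number 2 against 63.1 to 87.0, a difference of 0.53 (SE 0.11). Of 24 citric acid cycle genes 5 were called higher and 0 lower by limma, with a median of 0.06 that turned to -0.02 under quantile normalization. The 13 protein genes of mitochondrial DNA were all listed at 0 TPM, so the subunits they encode could not be followed.

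By their medians, genes of the mitochondrial and the cytosolic ribosome lay on opposite sides. Of 77 mitochondrial ribosomal proteins 21 were called higher and 0 lower by limma, with a median of 0.21, or 0.12 without the day 5 library of number 2. MRPL47 was at 49.7, 49.7 and 54.2 TPM against 32.9 to 39.9 with a median of 34.8, a difference of 0.52 (SE 0.09). Of 75 cytosolic ribosomal proteins 10 were called lower and 0 higher, with a median of -0.17, or -0.07 under quantile normalization. RPL13 was at 1476, 1522 and 1378 TPM against 1808 to 2234 with a median of 1919, a difference of -0.42 (SE 0.07). Ribosomal protein transcripts made up 22.1%, 21.6% and 21.6% of TPM in number 2 and 22.8% to 25.2% in the other libraries. TPM is itself a share, so the level of every other gene is relative to these. Whether that shift moved the values of other genes was not tested. GAS5 and ZFAS1, non-coding host transcripts of snoRNAs, differed by -0.45 (SE 0.09) and -0.40 (SE 0.08).

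**Figure D5:**
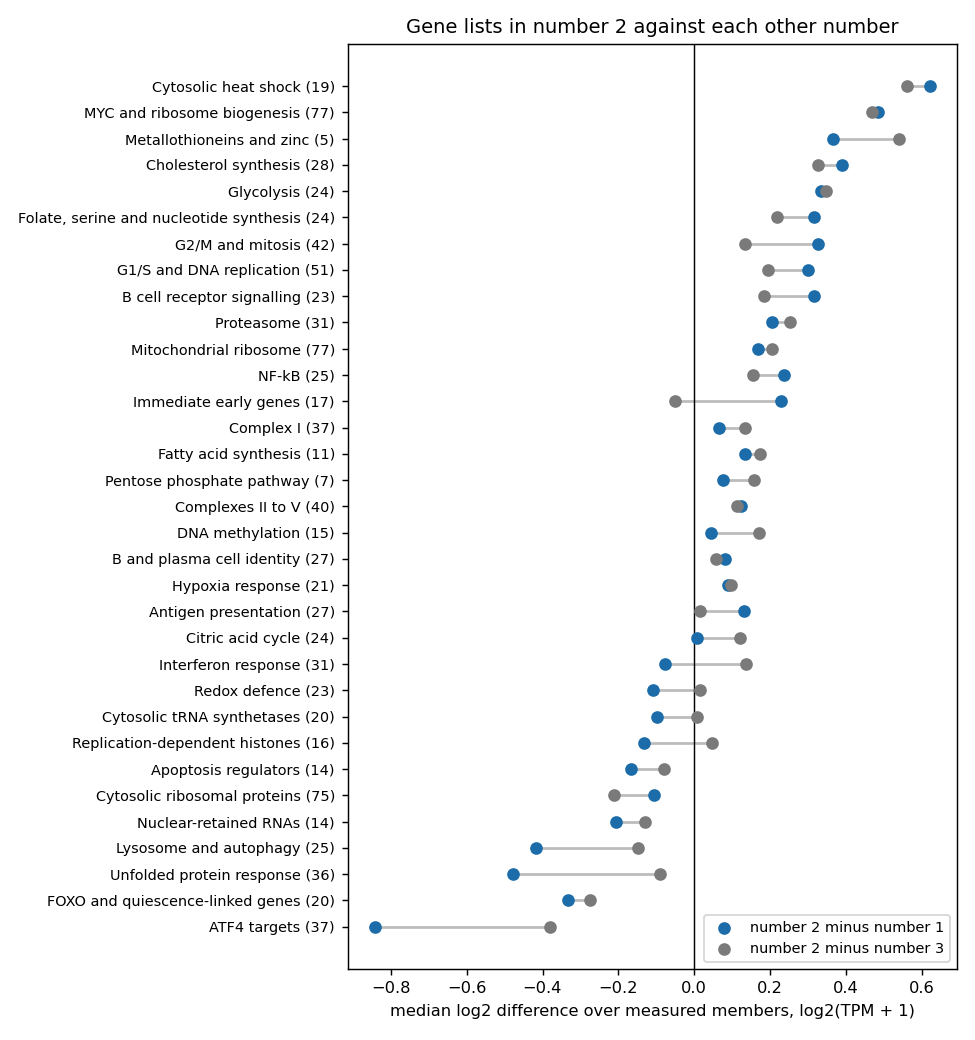
Median log2 difference of number 2 from number 1 (blue) and from number 3 (grey) over the measured members of each gene list shown, with the number of members in brackets, on the log2(TPM + 1) scale. Cytosolic heat shock and MYC lists lie at 0.47 to 0.62 against both numbers, while ATF4 targets lie at -0.84 against number 1 and -0.38 against number 3.

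Of the remaining lists, proteasome subunits had 7 of 31 called higher and 0 lower, with a median of 0.22, and PSMD1 differed by 0.56 (SE 0.10). Folate, serine and nucleotide synthesis had 7 of 24 called higher and 2 lower, with a median of 0.28. Among them were the purine enzyme PFAS at 0.55 (SE 0.13) and the serine hydroxymethyltransferase SHMT2 at -0.43 (SE 0.09). MT2A, a metal-binding protein, was at 32.8, 29.0 and 33.6 TPM against 6.19 to 14.6 with a median of 10.5, a difference of 1.62 (SE 0.21), and was the 1 called gene among 5 measured metallothionein and zinc genes. Redox defence had 3 of 23 called lower and 0 higher, GPX4, which repairs lipid peroxides, at -0.40 (SE 0.12). FTL, ferritin light chain, was at 1249, 1291 and 1431 TPM against 1591 to 3061 with a median of 2217, below all others but not called. Of 15 genes of DNA methylation 2 were called higher, UHRF1, which brings DNMT1 to replicating DNA, at 0.81 (SE 0.17) and TDG, a base excision enzyme, at 0.46 (SE 0.12). The pentose phosphate pathway had 2 of 7 called higher, nuclear-retained RNAs 1 of 14 higher and 5 lower, and immediate early genes 0 of 17 in either direction.

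Several of the clearest genes stood outside these lists. GPER1, a membrane oestrogen receptor, was at 149, 145 and 148 TPM in number 2 against 86.0 to 96.5 with a median of 88.5, a difference of 0.71 (SE 0.06). TOMM40, the channel of mitochondrial protein import, was at 163, 166 and 153 TPM against 69.1 to 92.8 with a median of 87.1, a difference of 0.92 (SE 0.10). COLGALT1, a collagen galactosyltransferase, was at 38.4, 36.2 and 33.8 TPM against 20.1 to 24.1. None of these overlapped.

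On the lower side, TNFRSF18, the costimulatory receptor GITR, was at 19.4, 20.3 and 17.6 TPM against 39.2 to 45.8 with a median of 42.7, a difference of -1.12 (SE 0.08). MIAT, a long non-coding RNA, was at 22.7, 25.2 and 26.1 TPM against 52.1 to 82.7 with a median of 63.9, a difference of -1.37 (SE 0.12). ITM2B, a membrane protein gene, was at 15.7, 17.4 and 17.6 TPM against 35.1 to 56.8 with a median of 45.9. RPS6KA2, a kinase downstream of ERK, differed by -1.39 (SE 0.13), UVSSA, of transcription-coupled repair, by -1.31 (SE 0.13), and SLC26A11, an anion transporter, by -1.32 (SE 0.13). PLPP5, ETHE1 and PABPC1L differed by -0.97, -0.97 and -0.85, all with number 2 below the 6 other libraries.

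Nuclear copies of mitochondrial genes, grouped after their values were seen, were high in number 2. MTCO3P12 was at 1278, 1405 and 1732 TPM against 707 to 884 with a median of 765, a difference of 0.89 (SE 0.06), and MTATP6P1 was at 3117, 3747 and 4497 TPM against 2066 to 2670.4, a difference of 0.62 (SE 0.07). Of 13 measured copies 8 were called higher and 0 lower by limma. Together the copies held 1.09%, 1.14% and 1.36% of TPM in number 2 and 0.802% to 0.938% in the others. These copies share sequence with mitochondrial DNA, whose own protein genes are listed at 0, so their reads cannot be told apart from mitochondrial transcripts.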

How the data were processed

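RNA of 9 libraries was compared; the 2 chromatin immunoprecipitation libraries and their peak list were not used. The authors deposited TPM per gene for the 9 libraries in 1 table of 60656 rows. The submitters' processing notes name HISAT2 2.1, StringTie 1.3.4, DESeq2, deepTools, Genrich 1.0 and ChIPseeker, without roles, and build hg38. Annotation and filters: not given in the sources used here. Since TPM keeps no depth, no counting interval is given. Columns headed as day 0 were taken as the uninduced samples, by number.

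Values were taken to log2(TPM + 1), which understates changes of low genes. A row was kept if 3 or more libraries reached 1 TPM (15045 rows). limma 3.58.1 in R 4.3.3 fitted number 2 against numbers 1 and 3 with day as a term, with an intensity trend, and Benjamini-Hochberg adjustment over all rows. Called means adjusted p under 0.05. The interaction of day and number 2 was tested with the same settings, and numbers 1 and 3 were fitted as number 2 was. In the fit of number 2 the residual spread pools libraries of 1 number with the gap between numbers 1 and 3. The 3 libraries of number 2, which share 1 label, were treated as replicates there. The interaction fit passes through each library of number 2. Its residual spread is thus only the gap between numbers 1 and 3 at each time, treated as independent between times. The scripts were tested on simulated data.

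Number 2 and the gene lists were chosen with earlier results of these data known. Named genes were the 12 per direction with the smallest p among those with mean TPM of at least 5 on the same side of both other numbers at all times, up to 4 members per list with the largest statistic, the 5 smallest interaction p, 12 fixed regulators, and members of the ATF4, MYC and unfolded protein lists by role. Other members of lists, and other genes named here, were chosen after their values were seen. Some genes and 1 list that these rules name are not reported here. Of rows sharing a symbol the one with the highest mean was used. Numbers are labels of separate vials, and the fit with replicate number as a block is an alternative. Other alternatives were another pseudocount, filter, scaling and trend, no day term, and leaving out libraries. Promoters are from RefSeq, and motifs were sought on both strands; of the measured ATF4, MYC and heat shock members, 81.1%, 80.5% and 89.5% had a window.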

Additional observations from a re-analysis of the deposited data

Results flagged for a closer look

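HNRNPA1P30, a pseudogene, passed the limma test for a difference of number 2 that depends on the day of induction, at an adjusted p of 0.0378. That test made 0 calls with the replicate block and 0 at a minimum of 5 TPM. It was listed at 0 TPM in 1 of the 3 libraries of number 2, that of day 5, and in the day 7 libraries of numbers 1 and 3, and at 7.15 to 9.77 TPM in the other libraries. An exact 0 in a table without counts can be a failed estimate, and the 0 values were not tested for this.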

How the results depend on the processing

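The 2350 calls for number 2 became 823 with no filter on low values and lay between 24 and 2256 when libraries or a whole number were left out. Without the day 7 library of number 3 there were 1558, without all of number 1 there were 1294, and without all of number 3 there were 818. With the replicate block of 3 levels there were 2963 calls and 0 interaction calls. The 1 interaction call became 9 with a pseudocount of 0.1, 1135 with no filter, 0 at a minimum of 5 TPM and 2 with no trend, and 1 to 3 when a library of numbers 1 or 3 was left out. It could not be fitted without a library of number 2. The 5214 genes on 1 side of both numbers became 209 at 1.5-fold at every time. The ATF4 median became -0.67 and the cytosolic ribosomal protein median -0.067 under quantile normalization. When libraries or numbers were left out, the medians lay between -0.84 and -0.38 for ATF4 targets, -0.48 and -0.090 for the unfolded protein response, -0.21 and -0.11 for cytosolic ribosomal proteins, -0.42 and -0.15 for lysosome genes, -0.57 and -0.19 for FOXO-linked genes, 0.12 and 0.33 for G2/M genes, 0.19 and 0.43 for glycolysis, and 0.12 and 0.25 for the mitochondrial ribosome. Medians near 0 turned sign, from 0.06 to -0.02 for the citric acid cycle under quantile normalization, and, with a library or a number left out, for tRNA synthetases, interferon, redox, immediate early and histone genes. The causes of these shifts were not tested. With 1 library of number 2 at each time, its spread within a time is unknown.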

Other observations

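The 5 genes that follow, linked to arginine or polyamines, were picked after their values were seen, so they say nothing of such genes as a group. ASS1, which makes argininosuccinate from citrulline and aspartate, was at 29.3, 57.8 and 59.4 TPM in the uninduced, day 5 and day 7 libraries of number 2 and at 110.4 to 311 TPM with a median of 198 in the others, a log2 difference of -2.02 (SE 0.30). ASL, which splits argininosuccinate to arginine, was at 14.6, 11.2 and 13.1 TPM against 24.6 to 30.7 with a median of 27.8, a difference of -1.05 (SE 0.11). No library of number 2 reached the range of the others for either enzyme. ARG2, a mitochondrial arginase, was at 0.386, 0.384 and 0.587 TPM against 2.40 to 15.6, and SLC25A29, a mitochondrial carrier of basic amino acids, was at 38.6, 47.7 and 34.6 TPM against 78.5 to 103. AMD1, which commits S-adenosylmethionine to polyamine synthesis, was higher, at 26.8, 33.0 and 25.3 TPM against 9.38 to 19.9 with a median of 12.2.

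The largest called differences, also chosen after their values were seen, included transcripts that were near 0 on 1 side. AC000041.1, to which no role is given here, was at 16.4, 15.7 and 20.8 TPM in number 2 and at 0 to 0.375 TPM in the others, a log2 difference of 3.94 (SE 0.16). AC118281.1 was at 0.0441, 0.0940 and 0.0245 TPM in number 2 and at 4.33 to 6.28 TPM in the others. RPL21P3, a ribosomal protein pseudogene, was at 4.90, 3.58 and 3.32 TPM in number 2 and was listed at 0 in all 6 others. UTP14C was at 0, 0.318 and 0.475 TPM against 0.503 to 16.7, and shares its coding sequence with the related gene UTP14A, so its value is uncertain.

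Secreted and surface genes were also among the largest. UNC5B, a netrin receptor, was at 0.694, 1.61 and 1.78 TPM in number 2 against 6.92 to 30.5 with a median of 14.7, a difference of -2.75 (SE 0.41). INHBE, an inhibin subunit, was at 2.58, 8.27 and 10.2 TPM against 20.8 to 68.7 with a median of 37.3, a difference of -2.41 (SE 0.36). ITGB7, an integrin subunit of gut homing, was at 21, 16.8 and 12 TPM against 1.78 to 5.69 with a median of 4.31, a difference of 1.79 (SE 0.24). For all 3 genes number 2 lay outside the range of the other libraries at every time, and for UNC5B and INHBE number 1 was farther from number 2 than number 3 was.

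Genes called in number 2 lay on every autosome. A RefSeq entry was found for 85.3% of tested rows, and those on the 22 autosomes were grouped by chromosome. The share called lay between 12.3% (chromosome 18) and 20.6% (chromosome 12). The median log2 difference of a chromosome lay between -0.002 and 0.073. Across genes, the difference of number 2 had a Spearman correlation of -0.03 with gene span and 0.11 with mean TPM, given as descriptions across genes.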
